A study of Mus musculus with 16 samples.

Results

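The RNAs described here are 10 noncoding RNAs chosen by name: the nuclear RNAs Malat1 and Neat1, the structured RNAs Rn7sk, Rmrp, Rpph1 and Terc, the small nucleolar RNA (snoRNA) host transcripts Gas5, Snhg1 and Snhg12, and Mir17hg, the host transcript of the miR-17-92 microRNA cluster. Of these 10, 8 were matched to an identifier among the 55414 in the count table, and 7 of the 8 passed the minimum of a mean of 10 counts per library that 18878 identifiers passed. Rn7sk and Terc were not analysed here, and Rmrp was below the minimum. The values come from 16 total RNA libraries of leukaemia-propagating cells (LPC) of mice with pro-B acute lymphoblastic leukaemia (ALL), a model of the infant disease in which miR-128a is overexpressed on a Kmt2a-AFF1+ genotype. All 16 libraries share that genotype, and no library without it was part of the comparisons. Cells came from bone marrow (BM) or from the central nervous system (CNS) and were sorted as LSK (Lin- Sca1+ cKit+ IL7R+) or as LK, which the labels also call CLP (Lin- Sca1- cKit+). This gives 4 groups of 4 libraries, BM LSK, CNS LSK, BM LK and CNS LK. Within an LPC type, each BM library shares a description stem with 1 CNS library, so that there are 8 stems. What a stem stands for is not in the labels, nor is how many animals gave the cells, nor their age.

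Malat1 is a long RNA of nuclear speckles, the bodies that store splicing factors, and Neat1 is the RNA on which paraspeckles assemble. Rpph1 is the catalytic RNA of RNase P, which trims the leader of precursor transfer RNAs, and Rmrp is the RNA of the related enzyme RNase MRP. Gas5, Snhg1 and Snhg12 carry snoRNAs in their introns, and their spliced exons are translated poorly and degraded through nonsense-mediated decay. Mir17hg is a MYC-activated transcript that is cut by Drosha into the hairpins of the miR-17-92 cluster, which is known for its role in early B cell development and in lymphoid malignancy.

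Library totals ran from 19163942 to 29232623 counts, of which 43.3 to 48.5% fell on protein-coding genes. Ly6a, which encodes Sca1, was low, with 11 to 50 counts per library. It stood at 0.940 to 2.26 CPM (counts per 1000000) in the LSK libraries and 0.466 to 0.903 CPM in the LK libraries. These ranges did not overlap, but the gap was narrow and the counts were few. Il7r was at 59.5 to 103 CPM, Kit at 116 to 168 CPM and Ptprc at 348 to 469 CPM. The ranges of each overlapped between LSK and LK. Of the 10 B lineage markers, Rag1 (213 to 341 CPM) and Dntt (10.5 to 248 CPM) were high, whereas Cd79a, Ebf1 and Pax5 each stayed at or under 2.13 CPM. Of the 8 T and NK cell markers, the T cell receptor gene Trbc2 stood at 94.5 to 130 CPM. The CD3 genes were low, with highest values of 1.16 (Cd3d), 0.679 (Cd3e) and 1.09 CPM (Cd3g). Cd4 stood at 3.85 to 13.8 CPM and Cd8a at 3.86 to 7.95 CPM, and Nkg7 and Ncr1 reached 0.558 and 0.281 CPM. Summed markers of myeloid cells (1.65 to 6.41 CPM) and of microglia and brain macrophages (3.35 to 5.50 CPM) were low in all 4 groups. Those of neural, glial and meningeal cells summed to 32.5 to 59.3 CPM, of which Mbp, also made by blood cells, gave 28.5 to 52.0 CPM. The libraries also carried counts on olfactory and vomeronasal receptor genes, summed at 292 to 763 CPM in BM LSK, 673 to 1011 in CNS LSK, 321 to 455 in BM LK and 366 to 870 in CNS LK. In sorted bulk samples such as these, fewer cells of a type and less RNA per cell cannot be told apart.

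The products of Mir17hg are shown because Mir17hg gave the only member difference between niches that passed a test. It did so only in the fit that paired libraries by stem. Its 6 hairpins lie on the forward strand at chr14:115043671-115044506 (GRCm38.p6, RefSeq), inside the Mir17hg gene. The mature RNA of the arm usually studied is printed for each hairpin, 5′ to 3′, with the seed, bases 2 to 8, in capitals.
mmu-miR-17-5p: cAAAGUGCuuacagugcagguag
mmu-miR-20a-5p: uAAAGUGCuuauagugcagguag
mmu-miR-18a-5p: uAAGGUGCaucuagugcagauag
mmu-miR-19a-3p: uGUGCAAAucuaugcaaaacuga
mmu-miR-19b-3p: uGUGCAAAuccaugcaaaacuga
mmu-miR-92a-3p: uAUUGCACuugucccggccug
The 6 RNAs carry 4 seeds. AAAGUGC is shared by miR-17-5p and miR-20a-5p, and GUGCAAA by miR-19a-3p and miR-19b-3p. miR-18a-5p and miR-92a-3p have a seed that no other of the 6 holds. Over the 1738 mature mouse RNAs of the table, AAAGUGC occurred in 7, AAGGUGC in 2, GUGCAAA in 3 and AUUGCAC in 7. The libraries measured the host transcript, not the mature RNAs: the genes Mir17, Mir18, Mir19a, Mir20a, Mir19b-1 and Mir92-1 had 0 counts in all 16 libraries.

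The 3′ ends of Neat1 and Malat1 are shown because the 2 RNAs varied together across the libraries. As background, RNase P, the enzyme of which Rpph1 is the RNA, cuts both transcripts at this end. The end is then held by a triple helix in place of a poly(A) tail, and the fragment after the cut in Malat1 folds like a transfer RNA. The last 11 bases of the long Neat1 transcript occur once in Malat1 (GENCODE M21, transcripts Neat1-201 and Malat1-201, minus strand, GRCm38). Neat1 is printed at chr19:5824708-5824797 and Malat1 at chr19:5795921-5796071. The capitals mark the shared bases and, before them, the longest run that is the reverse complement of part of them.
Neat1: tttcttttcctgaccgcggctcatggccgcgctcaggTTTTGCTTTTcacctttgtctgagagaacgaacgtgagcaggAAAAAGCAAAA
Malat1: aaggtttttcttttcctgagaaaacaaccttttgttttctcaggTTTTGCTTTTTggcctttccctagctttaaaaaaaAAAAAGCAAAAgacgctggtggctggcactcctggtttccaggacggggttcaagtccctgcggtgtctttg
In Neat1 the shared bases close the annotated transcript, at bases 20761 to 20771. In Malat1 they are bases 6681 to 6691, and the annotation runs on for 292 bases. The 11 shared bases, AAAAAGCAAAA on the transcript's own strand, were in 618 of 141767 annotated mouse transcripts (0.436%). The match is a description of the sequences and was not set against the counts.

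The starts of the snoRNA hosts are shown because Gas5, Snhg1 and Snhg12 are one class of transcript. Transcripts of this class usually begin in a run of pyrimidines, the 5′ terminal oligopyrimidine tract, as ribosomal protein messages do. The 25 bases before and the 25 from the RefSeq start are printed (GRCm38.p6, forward strand). Capitals mark the first run of at least 5 C or T bases that reaches past the start and begins by base 10.
Gas5, chr1:161035141-161035190: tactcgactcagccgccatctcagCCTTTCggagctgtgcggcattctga
Snhg1, chr19:8723462-8723511: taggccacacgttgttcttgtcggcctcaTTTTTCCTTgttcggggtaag
Snhg12, chr4:132308653-132308702: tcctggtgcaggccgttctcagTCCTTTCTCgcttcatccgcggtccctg
The run has 6 bases in Gas5 and 9 in both Snhg1 and Snhg12. It begins at base -1 in Gas5, 5 in Snhg1 and -3 in Snhg12, where negative bases lie before the RefSeq start. The annotated start of Snhg1 is therefore not inside its run, and whether the runs act as such tracts was not tested. Any run that met the rule was in 28.0% of the 32851 start windows of the table. A run of at least 6 bases was in 17.0% of them and a run of at least 9 bases in 5.31%. For Gas5, the last of its 2 annotated starts was used.

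Malat1 made up most of the counts of the 7 measured RNAs. It stood at 1854 to 3151 CPM over the 16 libraries and held 87.7 to 92.2% of their summed CPM. Gas5 followed at 102 to 146 CPM, then Neat1 at 24.4 to 73.6, Snhg1 at 34.1 to 44.5, Snhg12 at 19.1 to 26.2, Mir17hg at 9.54 to 25.6 and Rpph1 at 7.16 to 13.6 CPM. Per kilobase of annotated exon the order was different. Malat1 led at 355 ± 49.4 CPM per kb (SD, n = 16 libraries), 10.4 times the next, Gas5, at 34.2 ± 3.41. Rpph1, a short gene of 319 bases, came next at 30.8 ± 6.24 CPM per kb. Gas5 was above Rpph1 in 12 of 16 libraries, so these neighbours overlapped. Snhg1 (13.4 ± 1.22), Snhg12 (9.15 ± 0.764) and Mir17hg (4.31 ± 1.06) followed in that order in all 16 libraries. Neat1 was lowest per kilobase at 2.19 ± 0.635 and was under Mir17hg in 15 of 16 libraries. The value of Neat1 is divided by 20771 bases, the length of its long transcript, and the table does not separate that transcript from the short one. Lengths are unions of the exons of all annotated transcripts. For Snhg1 (2969 bases) and Snhg12 (2402 bases) that union covers the whole gene, introns of spliced transcripts included. For Gas5 (3760 bases) and Mir17hg (3536 bases) it covers most of the gene. Values per kilobase, their order and the ratio of 10.4 therefore depend on the annotation.

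**Figure D1:**
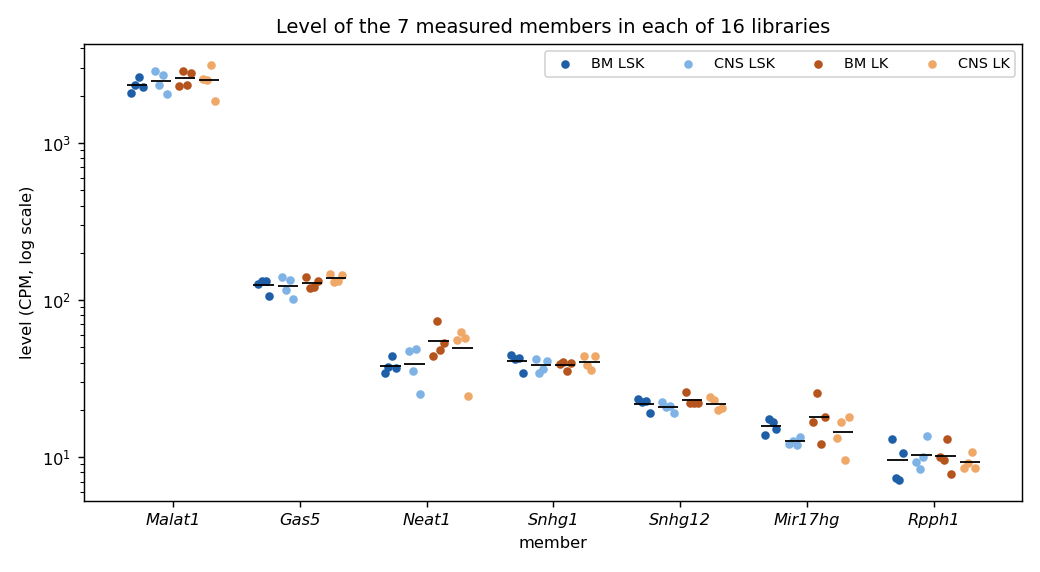
Level of each of the 7 measured RNAs in CPM on a log axis, 1 point per library, coloured by group, with a bar at each group's mean (n = 4). Malat1 lies between 1854 and 3151 CPM and Rpph1 between 7.16 and 13.6 CPM, and in most members the 4 groups overlap.

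The table was compared by niche (CNS minus BM) and by LPC type (LSK minus LK), the comparisons that the series names. Differences below are log2 differences, the first group minus the second, with their standard error (SE), and an RNA was called where edgeR's adjusted p was under 0.05. Without a block, none of the 7 was called between niches over both LPC types, where 0 of 18878 identifiers were called (0.0%). At an unadjusted p under 0.05 there was 1 of 7, Mir17hg, against 9.15% of all identifiers. With the stem as a block, 1 of 7 was called, again Mir17hg, against 126 of 18878 (0.667%). Between LPC types over both niches none of the 7 was called, against 45 of 18878 (0.238%). Neat1 was the 1 of 7 with an unadjusted p under 0.05, against 12.1% of all identifiers. Without a block, none of the 7 was called between niches within LSK or within LK, or between LPC types within BM or within CNS, each with 0.0% of identifiers called. At an unadjusted p under 0.05, again without a block, there was none within LSK (5.74% of identifiers), none within LK (3.99%), 1 within BM, Neat1 (6.38%), and none within CNS (6.58%). With the stem as a block none of the 7 was called within LSK or within LK either, against 26 and 12 of 18878 identifiers. Mir17hg had the smallest p of the 7 in both (unadjusted p = 0.00427 and adjusted p = 0.317 in LSK, 0.00441 and 0.534 in LK, by edgeR). DESeq2 and limma, run without a block, called none of the 7 in any of these comparisons. The test of whether the niche difference itself differed between LSK and LK called none, also with 0.0% called, and none of the 7 had an unadjusted p under 0.05, against 1.49%.

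**Figure D2:**
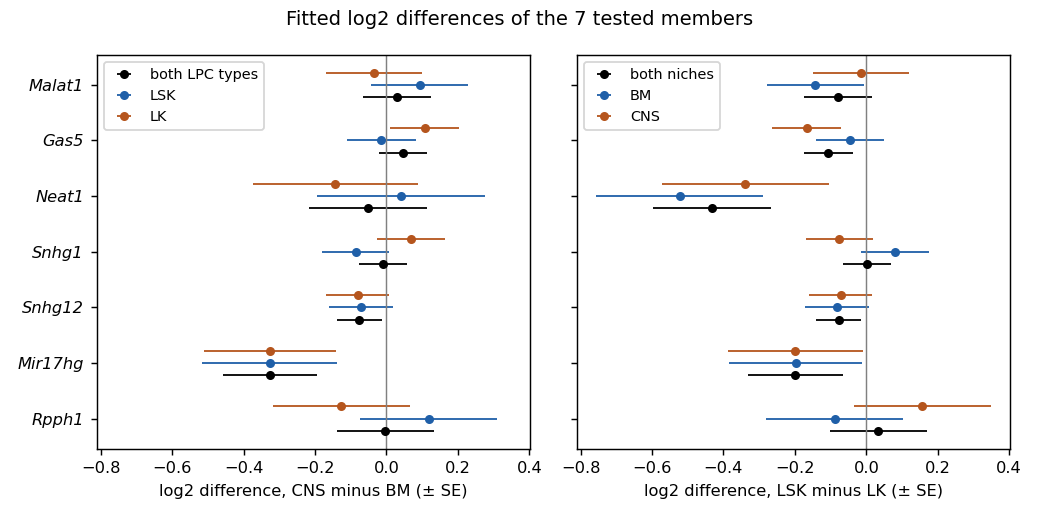
Fitted log2 differences of the 7 RNAs without a block, CNS minus BM on the left and LSK minus LK on the right, as points with bars of 1 SE. Mir17hg lies lowest in the niche panel, at -0.33 over both LPC types, and Neat1 lowest in the LPC panel, at -0.43 over both niches.

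Malat1 did not separate the groups. In BM LSK libraries 1 to 4 it stood at 2076, 2333, 2638 and 2287 CPM, and in CNS LSK libraries 1 to 4 at 2866, 2334, 2708 and 2048 CPM. BM LK libraries held 2314, 2869, 2347 and 2773 CPM, and CNS LK libraries 2541, 2512, 3151 and 1854 CPM. The highest and the lowest of the 16 libraries were both CNS LK, numbers 3 and 4, and all 4 ranges overlapped. The log2 difference was 0.03 ± 0.10 (SE) between niches (edgeR, adjusted p = 0.973) and -0.08 ± 0.10 between LPC types (adjusted p = 0.792). By stem, Malat1 was higher in the CNS library in 5 of 8.

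Neat1 was lower on average in LSK than in LK, by an amount that did not pass the adjusted test. It was 1 of 7 members with an unadjusted edgeR p under 0.05 over both niches, against 12.1% of all identifiers. BM LSK libraries 1 to 4 stood at 34.3, 37.5, 44.1 and 36.9 CPM, and BM LK libraries 1 to 4 at 44.2, 73.6, 48.1 and 53.5 CPM. Each BM LSK library was below each BM LK library, though BM LSK 3 and BM LK 1 nearly met; 1.64% of identifiers were separated in that direction. In the CNS, the LSK libraries stood at 47.5, 35.5, 48.8 and 25.3 CPM and the LK libraries at 55.5, 62.4, 57.0 and 24.4 CPM. There 3 LK libraries were above all LSK libraries and CNS LK 4 was below them. The log2 difference was -0.43 ± 0.17 (SE) over both niches (unadjusted p = 0.0171, edgeR adjusted p = 0.305), -0.52 ± 0.23 in BM (adjusted p = 0.755) and -0.34 ± 0.23 in CNS (adjusted p = 0.817). Without the minimum on counts Neat1 was called, at -0.49 (adjusted p = 0.00239), where 290 identifiers were called. That fit tested every identifier with any count, a larger set than the 18878, so 290 cannot be set directly beside the 45 called with the minimum. Without CNS LK 4 the difference over both niches was -0.55 (adjusted p = 0.0622), without BM LK 2 or CNS LSK 4 it was -0.33 (adjusted p = 0.470 and 0.402), and with the level of receptor gene counts as a covariate it was -0.25 (adjusted p = 0.899). The BM value was -0.34 without BM LK 2. The CNS value was -0.15 without CNS LSK 4, -0.21 without CNS LK 2 and -0.57 without CNS LK 4. Between niches the difference of Neat1 was -0.05 ± 0.16 (adjusted p = 0.973), and it turned to 0.06 without CNS LK 4 and to 0.04 without CNS LSK 4 or BM LK 2.

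The 2 nuclear RNAs varied together from library to library. The deviations of Malat1 and Neat1 from their group means had a Pearson r of 0.887 over the 16 libraries, where each point shares its library and depth with the other RNA. Neat1 was the gene most like Malat1 by this measure among 11640 genes compared. In CPM, Neat1 came to 1.61 to 1.67% of Malat1 in BM LSK, 1.24 to 1.80% in CNS LSK, 1.91 to 2.56% in BM LK and 1.32 to 2.48% in CNS LK. The ratio was thus higher in each BM LK library than in each BM LSK library, while the CNS groups overlapped. Both genes lie on chromosome 19 (GRCm38), Malat1 at 5795690 to 5802672 and Neat1 at 5824708 to 5845478, each on the minus strand.

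**Figure D3:**
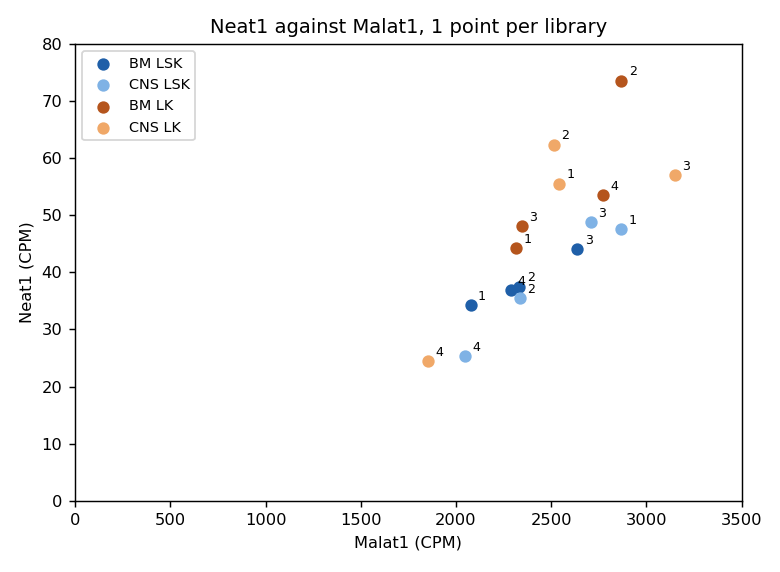
Neat1 against Malat1 in CPM, 1 point per library, coloured by group and numbered as in the labels, with both axes starting at 0. CNS LK 4, at 1854 CPM of Malat1 and 24.4 of Neat1, is the lowest point, and the BM LK points lie above the BM LSK points in Neat1.

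The proteins that build these bodies showed no called gene. Without a block, 0 of all 18878 identifiers were called between niches and 45 (0.238%) between LPC types. A list with no call is therefore not particular to these proteins. Of the 10 listed paraspeckle proteins, all 10 were tested and none was called between niches (median log2 difference 0.00150) or between LPC types (median -0.00547). Sfpq, a core paraspeckle protein and the most abundant of the list, stood at 469 CPM on average, with a niche difference of 0.00 ± 0.05 (SE). Of the 10 listed nuclear speckle proteins, none of the 10 tested was called in either comparison. Their median was -0.06 between niches, where 9 of 10 were negative, beside a median of -4.27e-07 over all 18878 identifiers. Between LPC types the median was -0.02, beside -0.01 over all identifiers. Srrm2, a large scaffold protein of speckles, averaged 909 CPM and differed between niches by -0.03 ± 0.05. With the stem as a block, all 10 speckle proteins were negative between niches. None was called (smallest edgeR adjusted p = 0.266), against 126 of 18878 identifiers (0.667%).

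Among the structured RNAs, Rpph1 was the only member with counts enough to test. It had 161 to 301 counts per library. BM LSK libraries 1 to 4 stood at 13.1, 7.41, 7.16 and 10.6 CPM, CNS LSK libraries at 9.33, 8.47, 9.98 and 13.6 CPM. BM LK libraries held 10.1, 9.66, 13.0 and 7.86 CPM, and CNS LK libraries 8.59, 9.23, 10.8 and 8.53 CPM. The 4 ranges overlapped, and that of CNS LK was the narrowest, at 8.53 to 10.8 CPM. By stem, the CNS library was lower in 4 and higher in 4 of 8. The difference between LPC types was 0.03 ± 0.14 (SE, edgeR adjusted p = 0.952), and the adjusted p between niches was 0.999. Both differences changed sign under other settings, so neither has a direction. Rpph1 (chromosome 14, 50807449 to 50807767, minus strand, GRCm38) lies beside Parp2, which encodes a poly(ADP-ribose) polymerase of DNA repair. Parp2 stood at 17.2 to 25.6 CPM and differed between niches by -0.16 ± 0.06 (adjusted p = 0.449).

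Rmrp had 2 counts in all, both in the library CNS LSK 2 and both on the longer of its 2 identifiers. The shorter identifier lies inside the longer one (chromosome 4, 43492783 to 43493063, GRCm38). A count of 0 in a library allowed a level of up to 0.103 to 0.157 CPM, depending on its depth, where 3 counts set the limit. A level below that could not be told from 0 at this depth, and no comparison was made. The limit covers counting error only. It does not cover reads that lie on both overlapping identifiers, whose treatment in the counting is not given in the sources used here.

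Of the protein partners of the structured RNAs that passed the count minimum, none was called in either comparison. Without a block, 0 of 18878 identifiers were called between niches and 45 (0.238%) between LPC types. For RNase P and RNase MRP, 10 of 11 listed proteins were tested, with a median of 0.03 between niches and -0.02 between LPC types. Pop1, a shared scaffold subunit and the most abundant, averaged 22.5 CPM and differed between niches by 0.02 ± 0.07 (SE). Of the telomerase proteins, partners of Terc, all 8 were tested, with medians of -0.02 between niches and -0.00451 between LPC types. Dkc1, the pseudouridine synthase of this complex, averaged 112 CPM. The 8 proteins that work with the RNA of Rn7sk to hold or release the elongation kinase P-TEFb were tested too, with medians of -0.00793 and -0.01.

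Other structured RNAs were listed beside the members, 14 in all, of which 8 were tested. Without a block none was called between niches (median -0.06) or between LPC types (median -0.09). Over all 18878 identifiers, 0 and 45 (0.238%) were called in these comparisons. Scarna2, a guide RNA of Cajal bodies, was the most abundant at 89.4 CPM. With the stem as a block, Rny1, the Y RNA that binds the Ro60 protein, was the 1 of 8 called, against 0.667% of all identifiers. In LSK stems 1 to 4, Rny1 went from 20.5, 16.6, 17.3 and 11.7 CPM in BM to 17.4, 12.9, 14.3 and 9.51 CPM in CNS. In LK stems it went from 20.1, 13.7, 17.2 and 17.3 CPM to 10.4, 11.98, 17.4 and 10.5 CPM. Of the 8 stems, 7 had less Rny1 in the CNS library, LK 3 being level. With the block Rny1 fell by 0.37 ± 0.08 on the log2 scale (edgeR adjusted p = 0.0473), and without it the adjusted p was 0.437. The call was lost without 6 of the 8 stems, all but LK 2 and LK 3 (adjusted p up to 0.138), and with library sizes from protein-coding genes (adjusted p = 0.0503) or the receptor covariate (0.869).

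Gas5, Snhg1 and Snhg12 were the least variable members, with a coefficient of variation of 8.35 to 9.97% over the 16 libraries against 13.9 to 28.98% in the other 4, and none differed between groups beyond the spread of the libraries. Gas5 stood at 126, 133, 133 and 106 CPM in BM LSK libraries 1 to 4 and at 141, 115, 134 and 102 CPM in CNS LSK. In BM LK it stood at 140, 120, 121 and 133 CPM and in CNS LK at 146, 130, 133 and 144 CPM. Both the highest library, CNS LK 1, and the lowest, CNS LSK 4, came from the CNS. Between niches the difference was 0.05 ± 0.07 (SE, edgeR adjusted p = 0.911), and between LPC types -0.11 ± 0.07 (adjusted p = 0.560). In LK, Gas5 was higher in the CNS library of each of the 4 stems, by a fitted 0.11 ± 0.10 that was not called.

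Snhg1 stood at 44.5, 42.3, 42.7 and 34.3 CPM in BM LSK libraries 1 to 4 and at 42.5, 34.1, 36.4 and 41.2 CPM in CNS LSK. BM LK libraries held 39.5, 40.6, 35.3 and 39.5 CPM and CNS LK libraries 43.9, 38.6, 35.8 and 44.3 CPM. The 4 ranges overlapped almost fully. Differences were -0.01 ± 0.07 (SE) between niches (edgeR adjusted p = 0.989) and 0.00 ± 0.07 between LPC types (adjusted p = 0.993), and both changed sign when single libraries were left out. Slc3a2, the heavy chain of an amino acid transporter and the gene next to Snhg1, averaged 39.1 CPM and differed between niches by -0.15 ± 0.06 (adjusted p = 0.484). None of the 6 neighbouring genes tested was called. Without a block, 0 of 18878 identifiers were called between niches and 45 (0.238%) between LPC types.

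Snhg12 stood at 23.3, 22.4, 22.9 and 19.1 CPM in BM LSK libraries 1 to 4 and at 22.3, 20.9, 21.04 and 19.2 CPM in CNS LSK. BM LK libraries held 26.2, 22.3, 21.99 and 22.3 CPM and CNS LK libraries 24.2, 23.0, 20.03 and 20.6 CPM. BM LK 1 was the highest of all 16, and the other 15 libraries spanned 19.1 to 24.2 CPM. Of the 8 stems, 6 had less Snhg12 in the CNS library, with a fitted difference of -0.08 ± 0.06 (SE, edgeR adjusted p = 0.785). Between LPC types the difference was -0.08 ± 0.06 (adjusted p = 0.664).

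The snoRNA hosts varied together in part. The deviations of Gas5 and Snhg12 from their group means had r = 0.703 over 16 libraries, those of Snhg1 and Snhg12 r = 0.490, and those of Gas5 and Snhg1 r = 0.476. In BM LSK 4, all 3 were at the lowest level of that group. The snoRNA genes inside these hosts had no counts of their own: 9 small RNA genes lie in Gas5, 8 in Snhg1 and 4 in Snhg12 (Snora44, Snora61, Snora16a and Snord99), and each was at 0 in all 16 libraries. How the counting treated a small gene inside a larger one is not given in the sources used here.

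**Figure D4:**
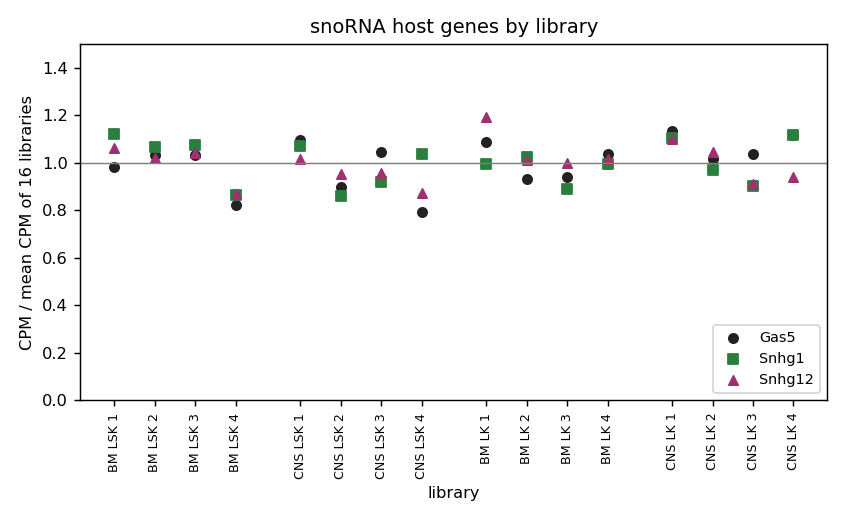
Gas5, Snhg1 and Snhg12 in each library, as CPM divided by the RNA's own mean over the 16 libraries, with a line at 1. BM LSK 4 is low for all 3 RNAs, and BM LK 1 is the highest point of Snhg12, at 26.2 CPM.

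Other snoRNA hosts and the decay factors that act on such transcripts showed no called gene, with or without a block. Over all 18878 identifiers without a block, 0 were called between niches and 45 (0.238%) between LPC types. With the stem as a block, 0.667% were called between niches. Of 17 other hosts listed, 12 were tested, with a median of -0.05 between niches and -0.03 between LPC types. Snhg17 was the most abundant at 27.5 CPM. All 10 nonsense-mediated decay factors were tested. Smg1, the kinase that marks the helicase Upf1, averaged 329 CPM, and the list's medians were -0.04 between niches and -0.05 between LPC types, with 9 of 10 negative in each.

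Mir17hg was lower on average in the CNS than in the BM. The difference was called only with the stem as a block, and that call depended on single stems. In LSK stems 1 to 4 it went from 13.9, 17.4, 16.7 and 15.2 CPM in BM to 12.2, 12.7, 12.04 and 13.5 CPM in CNS. Each CNS LSK library was below each BM LSK library, a separation in that direction found for 1.59% of identifiers. In LK stems 1 to 4 it went from 16.7, 25.6, 12.2 and 17.9 CPM in BM to 13.3, 16.8, 9.54 and 18.1 CPM in CNS. There the groups overlapped, 3 stems were lower in the CNS and LK 4 was level. In all, 7 of 8 stems had less in the CNS library, which held for 6.64% of identifiers. Group means were 15.8 ± 1.58 CPM in BM LSK, 12.6 ± 0.683 in CNS LSK, 18.1 ± 5.58 in BM LK and 14.4 ± 3.84 in CNS LK (SD, n = 4 libraries each).

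**Figure D5:**
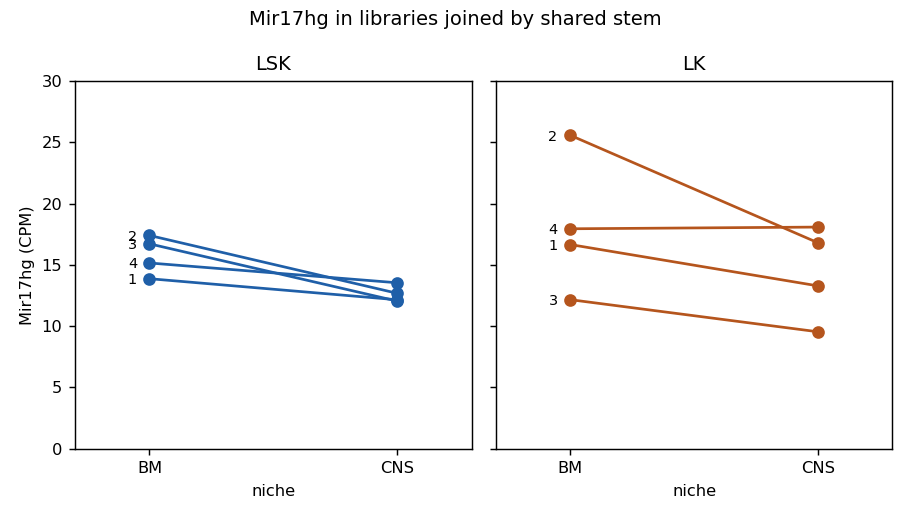
Mir17hg in CPM in BM and CNS libraries, 1 line per stem, numbered at its BM point, with LSK on the left and LK on the right. The line falls from BM to CNS in 7 of 8 stems, and in LK 4 it runs from 17.9 to 18.1 CPM.

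With the stem as a block, Mir17hg fell by 0.32 ± 0.07 on the log2 scale from BM to CNS (SE, edgeR adjusted p = 0.0359), one of 72 identifiers called lower (0.381%). Without the block the difference was -0.33 ± 0.13 and was not called (unadjusted p = 0.0231, adjusted p = 0.482). The value was -0.33 ± 0.19 in LSK and -0.33 ± 0.19 in LK, and the difference between them had an unadjusted p of 0.996. The LK value rested in part on single libraries: it was -0.11 without BM LK 2 and -0.17 without CNS LK 3. In LSK it stayed between -0.38 and -0.28 with any 1 library left out. Over both LPC types the unblocked value was -0.22 without BM LK 2. The blocked call depended on single stems. It was lost without LSK 1, LSK 2, LSK 3, LK 1, LK 2 or LK 3 (adjusted p 0.0551 to 0.139) and kept without LSK 4 (0.0388) or LK 4 (0.00985). With the level of receptor gene counts as a further covariate the value was -0.41 and was not called (adjusted p = 0.168). Between LPC types Mir17hg differed by -0.20 ± 0.13 (adjusted p = 0.578), and by -0.08 without BM LK 2.

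Mir17hg also moved with measures of the libraries. Over 16 libraries, its deviations from the group means had r = 0.675 with the mitochondrial share of counts and -0.643 with the snoRNA share. They had r = -0.626 with the share of counts on identifiers without a symbol. With log2 total counts r was 0.527, and with the protein-coding share 0.492. Each is a description, since both values come from the same library. The mitochondrial share was 5.36 to 5.96% in BM LSK, 4.81 to 5.79% in CNS LSK, 5.08 to 5.96% in BM LK and 4.32 to 6.36% in CNS LK. These ranges overlapped between niches. Within stems, the share was lower in the CNS library in LSK 2, LSK 3, LSK 4, LK 1 and LK 3. It was higher there in LSK 1, LK 2 and LK 4. With the receptor gene counts, the r of Mir17hg was -0.07. Summed neural, glial and meningeal markers were at 32.5 to 45.2 CPM in BM LSK, 34.4 to 59.3 in CNS LSK, 36.7 to 41.6 in BM LK and 41.5 to 45.1 in CNS LK. The part of these measures in the niche difference was not tested, apart from the fit with the receptor covariate.

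Genes reported as targets of the miR-17-92 RNAs were listed, 10 in all, of which 9 were tested. Without a block none was called in either comparison, and the median was -0.05 between niches. Over all identifiers, 0 were called between niches and 45 (0.238%) between LPC types. With the stem as a block 2 of the 9 were called between niches, both lower in the CNS, beside 126 of 18878 identifiers called (0.667%), 72 of them lower (0.381%). Cdkn1a, which encodes the cell cycle inhibitor p21, was among them. It was scarce, with 1 to 91 counts per library. In LSK stems it went from 4.84, 1.20, 2.89 and 0.478 CPM to 1.91, 0.241, 1.25 and 0.770 CPM, and in LK stems from 1.83, 0.179, 3.64 and 0.678 CPM to 0.747, 0.0423, 0.516 and 0.435 CPM. It was lower in the CNS in 7 of 8 stems, LSK 4 being the exception, and fell by 1.37 ± 0.30 on the log2 scale with the block (edgeR adjusted p = 0.0360, and 0.429 without it). The call on Cdkn1a was lost without LSK 1, LSK 2, LSK 3, LK 1 or LK 3 (adjusted p up to 0.220). With the receptor covariate added to the block, Cdkn1a was not called (adjusted p = 0.342). It went in the direction of Mir17hg. Over the 9 targets tested, 3 differences between niches were positive and 6 negative with the block, with a median of -0.05. Of the 7 not called with the block, Bcl2l11, which encodes the pro-apoptotic protein BIM, differed by 0.10 ± 0.04 with the block (adjusted p = 0.311) and E2f1, a cell cycle transcription factor, by -0.05 ± 0.05 (adjusted p = 0.689).

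The machinery that makes and uses microRNAs showed no called gene. Without a block, 0 of 18878 identifiers were called between niches and 45 (0.238%) between LPC types. All 10 listed factors were tested, and the 10 differences between niches were negative, with a median of -0.04 beside -4.27e-07 over all identifiers. Ago2, the Argonaute protein with slicer activity, averaged 196 CPM and differed between niches by -0.01 ± 0.04 (SE). Of 14 other long noncoding RNAs listed, 11 were tested and none was called, with medians of 0.08 between niches and -0.08 between LPC types. Kcnq1ot1, the imprinted antisense transcript of the Kcnq1 locus, was the most abundant of them at 198 CPM.

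The genes most like each member were taken by the correlation of deviations from the group means over 16 libraries, among 11640 genes with a mean of at least 50 counts. Mir17hg was most like Fubp1, which encodes a DNA-binding protein of far-upstream elements (r = 0.948, mean 247 CPM), then Lxn (0.891) and Tardbp (0.866). Neat1 was most like Rrnad1 (0.932), Gm47920 (0.911) and Vasn (0.904), and Malat1, after Neat1, like Selenoo (0.862) and Tmem191c (0.858). Rpph1 was most like Haus7, an augmin subunit (0.887), Gm9048 (0.873) and Pfdn4, a prefoldin subunit (0.843). Gas5 was most like Rmnd5a (0.922), Itgb1, the integrin beta 1 chain (0.915), and Erlin2 (0.901). Snhg1 was most like Tstd2 (0.852), Gm6505 (0.842) and the splicing factor gene Srsf7 (0.836), and Snhg12 like Kif3b (0.924), Fut8 (0.888) and Fosb (0.880). The values are the highest of many and are given as a description.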

How the data were processed

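RNA of sorted cells was made into stranded total RNA libraries with a low-input kit, per the labels. The deposited table holds counts per Ensembl identifier for 16 libraries. It is described as normalised, yet its values are whole numbers with totals that differ between libraries, so they were used as counts. DESeq2 and GRCm39 are named in the submitters' processing notes. The aligner, the counter, the annotation, the use of strand and of molecular identifiers are not given in the sources used here, so reads of overlapping genes may have been split between them. Symbols, lengths and coordinates come from GENCODE M21 (GRCm38), by identifier (52081 of 55414 matched).

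Differences were fitted with edgeR 4.0.16 (R 4.3.3), quasi-likelihood, TMM factors, 4 group means over all 16 libraries, a mean of at least 10 counts and two-sided tests with Benjamini-Hochberg adjustment over 18878 identifiers. The fit was also run on simulated data with changes larger than the one fitted for Mir17hg, so that run does not cover differences of its size. The outcome is not reported here. CPM are counts per 1000000 of the TMM-scaled total. A second fit took the stem as a block for niche comparisons. The libraries of a stem deviated together from their group means across genes (r = 0.112 to 0.339, over 0.1 in 8 of 8 stems), so the stems were taken to pair them, and the blocked value stands beside a result where it changes the call. The labels do not say that libraries of a group came from separate animals, so p-values measure the spread between these samples. Alternatives were median-of-ratios factors, no minimum, protein-coding library sizes, DESeq2 1.42.0, limma 3.58.1 on log2(CPM + 1), leaving out each library, and, chosen after seeing the data, receptor gene counts as a covariate, leaving out stems and changes made together with the block.

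Named genes are all members, the most abundant gene of each list and those called (up to 4), the 3 genes most like each member, on log2(CPM + 0.5), and neighbours or targets added for context after their values were seen (Parp2, Bcl2l11, E2f1). A few genes that fall under this rule are not reported here. The members and the lists were chosen with earlier results of these data known.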

Additional observations from a re-analysis of the deposited data

Results flagged for a closer look

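Snhg12 in BM LK 1 stood apart from the other libraries of its group, at 26.2 CPM against 21.99 to 22.3 CPM. The gap is 0.926 of the group's range, above the critical value of 0.829 for 4 libraries. It was the only such library among the 28 combinations of member and group examined, where chance would give about 1.4.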

How the results depend on the processing

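Of 414 refits of 18 member differences, 371 kept their direction and their side of the threshold, 2 became called and 41 changed sign, all 41 of differences not called. Also, 2 counts of members changed, to 1 with the replicate block (Mir17hg, niche) and to 1 with no minimum on counts (Neat1, LPC type). The paired value of Mir17hg, -0.32 with the replicate block, was -0.33 without it and -0.41 with block and receptor covariate, neither called, and -0.38 to -0.27 with 1 stem left out. Identifiers called between niches over both LPC types went from 0 to 85 with no minimum, 40 with DESeq2 and 126 with the block. In LSK they went to 10 with no minimum and 26 with the block, and in LK to 14 and 12. Between LPC types over both niches, 45 became 290 with no minimum, 222 with DESeq2, 162 with the block, 10 with the receptor covariate and 15 to 137 with 1 library left out (15 without CNS LK 3, 137 without CNS LSK 2). In BM, 0 became 48 with no minimum, 39 with DESeq2 and 0 to 2 with 1 library left out, and in CNS 38, 6 and 0 to 13. The causes were not tested.

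Sign changes with no minimum were Malat1 (niche, -0.031), Gas5 (niche, -0.014), Rpph1 (LPC type, -0.025) and Snhg1 (LPC type, -0.055). With the receptor covariate they were Malat1 (LPC type, 0.0058), Neat1 (niche, 0.14), Rpph1 (LPC type, -0.015) and Snhg1 (LPC type, -0.0099). Rpph1 between niches was 0.0098 with the block and 0.0088 with limma, and Snhg1 between LPC types -0.00305 with protein-coding library sizes. Leaving out 1 library at a time, niche differences spanned -0.034 to 0.090 for Malat1, -0.12 to 0.064 for Neat1, -0.075 to 0.087 for Rpph1 and -0.047 to 0.019 for Snhg1, and LPC differences -0.058 to 0.10 for Rpph1 and -0.026 to 0.040 for Snhg1. For the LPC comparisons the title number served as the block. Libraries with the same number deviated together in 4 of 8 cases (in 6 of 8 when the count minimum was raised from 10 to 50), so it was not taken to pair them, and no member was called with it. Counts were few for Rmrp, with 2 in all, and for Cdkn1a, with 1 to 91 a library.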
